A study of Mus musculus with 16 samples.

Results

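The Kruppel-like factors are a family of transcription factors, and 9 of them (Klf2, Klf3, Klf4, Klf6, Klf7, Klf9, Klf10, Klf13 and Klf16) were followed here by their gene symbols among the 22287 genes of the expression table. All 9 passed the filter on low counts that left 12514 genes for testing. RNA was sequenced from bone marrow derived macrophages (BMDMs), cells matured in a dish from femur bone marrow of C57BL/6J mice aged 8 weeks, which were male per the study's methods. The cells were cultured for 7 days with GM-CSF at 20 ng/ml (GM) or with M-CSF at 50 ng/ml (M), on dishes treated to promote adherence (TC) or on untreated dishes (noTC), and then received vehicle (steady state) or LPS at 100 ng/ml for 3 h. The 8 groups, named for growth factor and dish (such as GM-TC or M-noTC) with the ending -LPS where it was added, held 2 replicates each, 16 libraries in all. The sources do not state whether same-numbered replicates came from 1 mouse, so p-values measure the spread between these libraries.

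Kruppel-like factors bind GC-rich and CACCC elements through zinc fingers at the C-terminal end and differ in the partners that the rest of the protein recruits. Klf2, Klf4, Klf6 and Klf7 belong to the branch that mostly activates transcription through acetyltransferases, Klf3 belongs to the branch that represses through the corepressor CtBP, and Klf9, Klf10, Klf13 and Klf16 carry a domain that binds the corepressor Sin3a. In myeloid cells Klf2 and Klf4 are best known for restraining or shaping inflammatory activation, and Klf6 for promoting it.

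Each library held 17527802 to 31458363 expected counts, and 3 counts, taken as the detection floor, corresponded to 0.0697 to 0.174 CPM, the counts scaled to a common library total. CPM values were scaled by TMM, a method that sets the bulk of genes equal between libraries. TMM factors ranged over 1.11-1.39 in vehicle and 0.778-0.842 in LPS libraries. With plain library size the median of all tested genes moved to log2 fold changes of -0.53 (GM-TC), -0.54 (GM-noTC), -0.83 (M-TC) and -0.73 (M-noTC) for LPS, and to -0.29 for GM against M at steady state on either dish, so fold changes here are relative to the bulk of genes. Macrophage markers were abundant everywhere (6 markers, summed level 19900 to 46500 CPM). The LPS check gene Tnf stood at 8.23 to 50.7 CPM in the vehicle libraries and at 3200 to 6460 CPM in the LPS libraries. The 8 heart muscle markers summed to 21.8 to 60 CPM in the 4 vehicle libraries of TC dishes and to at most 0.813 CPM elsewhere, and Il6 was at 5.04 to 7.50 CPM in the vehicle libraries of noTC dishes against at most 0.303 CPM in those of TC dishes, so the libraries at steady state differed between dishes in these respects as well.

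Sequence upstream of Klf2, Klf4 and Klf9 is shown because these 3 genes differed most between GM and M at steady state. RefSeq promoter windows of GRCm38.p6, 250 bases before to 50 after the start, matched 7 of the 9 genes (not Klf10 and Klf16). The 250 upstream bases are printed 5′ to 3′ on the gene's strand, for Klf2 at chr8:72318812-72319061 (plus strand), Klf4 at chr4:55532476-55532725 (minus strand) and Klf9 at chr19:23140976-23141225 (plus strand). Capitals mark GC boxes (GGGCGG on either strand), the MEF2 consensus in Klf2 and a match to the AP-1 pattern TGANTCA in Klf9. The N in this pattern allows any base, and in Klf9 it is A.
Klf2: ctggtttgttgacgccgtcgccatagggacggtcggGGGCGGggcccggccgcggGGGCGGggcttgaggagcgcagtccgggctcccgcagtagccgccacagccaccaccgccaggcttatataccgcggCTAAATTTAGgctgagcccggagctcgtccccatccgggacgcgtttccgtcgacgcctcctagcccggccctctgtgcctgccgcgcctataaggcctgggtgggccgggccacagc
Klf4: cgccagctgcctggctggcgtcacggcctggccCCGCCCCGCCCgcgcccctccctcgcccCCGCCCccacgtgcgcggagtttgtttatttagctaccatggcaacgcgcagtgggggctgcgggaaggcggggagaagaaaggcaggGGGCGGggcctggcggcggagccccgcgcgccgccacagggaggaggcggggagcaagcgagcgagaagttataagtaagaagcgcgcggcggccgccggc
Klf9: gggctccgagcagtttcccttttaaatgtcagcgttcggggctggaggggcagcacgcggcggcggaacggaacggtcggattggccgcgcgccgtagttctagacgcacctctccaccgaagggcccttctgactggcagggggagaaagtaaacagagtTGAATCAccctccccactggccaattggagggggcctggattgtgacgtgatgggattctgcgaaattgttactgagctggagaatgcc
GC boxes, a contact of Sp and Kruppel-like proteins, were found in 35.7% of all 32851 promoter windows. Klf2 held 2, Klf4 held 4, Klf3 held 6, Klf13 held 3, and Klf6 and Klf7 held 1 each, whereas Klf9 held none. The MEF2 consensus lay 118 to 109 bases before the Klf2 start and in 0.557% of all windows, and in no other of the 7. MEF2 factors are known activators of Klf2 and Klf4. The match of Klf9 to the AP-1 pattern lay 89 to 83 bases before the start and overlapped a CACCC element. The pattern, with any base at its centre, was found in 7.81% of windows. The kappaB motif, present in 4.51% of windows, was in 0 of the 7. A match is a string of letters and not a site shown to be bound.

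Per kilobase of exon, Klf6 was the most abundant of the 9 genes, with a mean of 58.4 CPM per kb at steady state and 205 CPM per kb upon LPS challenge. At steady state the mean level per kb was 14.8 for Klf4, 12.2 for Klf13, 9.97 for Klf9, 9.26 for Klf10, 6.81 for Klf2, 5.63 for Klf3, 3.45 for Klf16 and 2.72 for Klf7. Upon LPS challenge Klf7 reached 15.9 and Klf3 14.2 CPM per kb, while Klf10 was the lowest at 1.6. The groups differed least for Klf16, whose highest group mean was 2.48 times its lowest, and most for Klf9, with a ratio of 38.3.

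**Figure D1:**
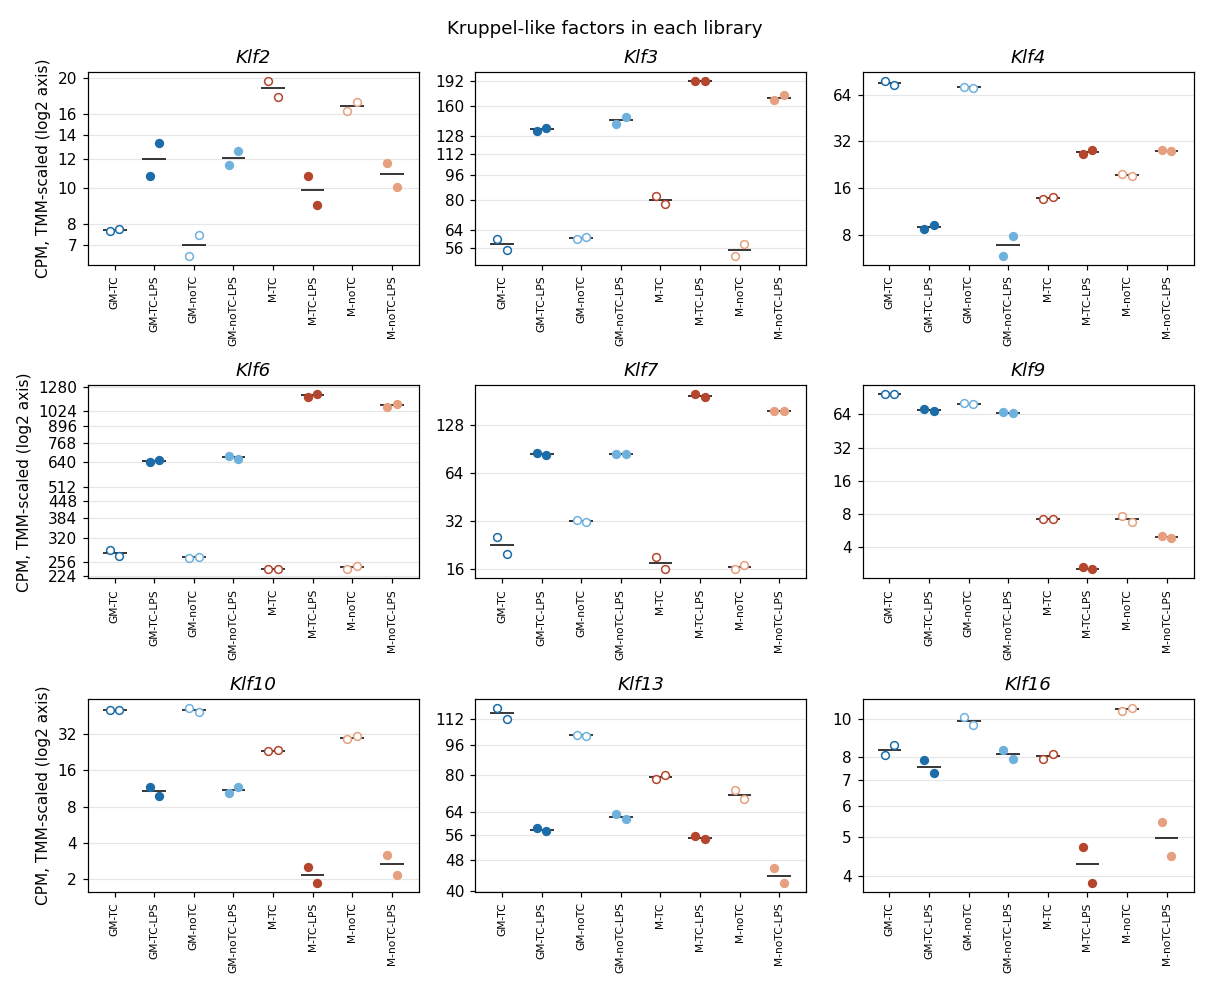
TMM-scaled CPM (log2 axis) of the 9 Kruppel-like factors, 1 panel a gene, in the 8 groups; each point is a library, hollow at steady state and filled with LPS, and lines mark group means. Klf9 stands at 65.3 to 97.8 CPM in all GM libraries and at 2.5 to 7.65 CPM in all M libraries, and Klf4 goes from the highest to the lowest level in GM with LPS.

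The first question was how LPS, a bacterial activator of Toll-like receptor 4, changed each gene in each kind of macrophage. Klf3, Klf6 and Klf7 rose and Klf9, Klf10 and Klf13 fell in all 4 settings, whereas Klf2 and Klf4 moved in opposite directions in GM and M. At an adjusted p under 0.05, 4 members were higher and 4 lower in GM-TC, beside 32.8% and 34.2% of all tested genes. In GM-noTC 4 were higher and 5 lower, beside 33.6% and 34% of all genes, in M-TC 4 and 5, beside 37.6% and 36.4%, and in M-noTC 4 and 5, beside 36.4% and 35.9%. Past a 2-fold change as well, 3 were higher and 3 lower in GM-TC (13.4% and 12.7% of all genes), 3 and 2 in GM-noTC (13.1% and 12.6%), 3 and 2 in M-TC (17.3% and 18.5%) and 3 and 2 in M-noTC (15.9% and 16.3%). The median log2 fold change of the 9 was -0.15, -0.28, -0.52 and -0.53, beside -0.051, -0.034, -0.0084 and -0.0061 for all genes. Scaled by library size only, the 9 split into 3 higher and 5 lower in each setting but M-noTC, where it was 3 and 6, beside 17.2% and 62.7%, 16.4% and 63.8%, 16.3% and 69.1%, and 16.1% and 68.5% of all genes.

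**Figure D2:**
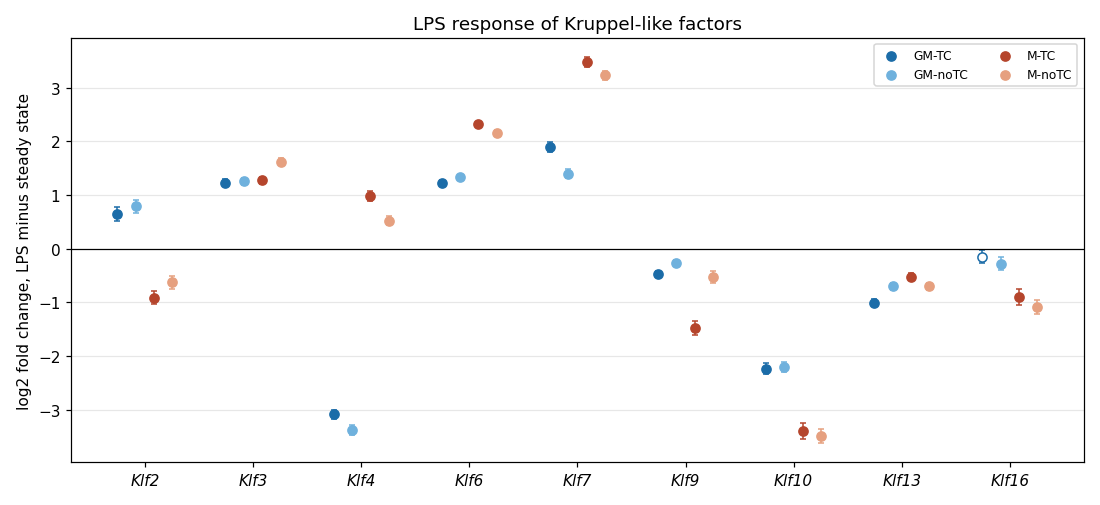
Log2 fold change (y axis) of each Kruppel-like factor with LPS against vehicle in the 4 settings, with bars of 1 SE; filled points passed an adjusted p under 0.05 and hollow ones did not. Klf4 lies at -3.09 and -3.37 in GM and at 0.98 and 0.52 in M.

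Klf4, a factor of monocyte differentiation, was at 78.7 and 74.2 CPM in GM-TC and at 8.68 and 9.24 CPM in GM-TC-LPS. On noTC dishes it went from 71.9 and 70.5 CPM to 5.83 and 7.89 CPM. In M it started low, at 13.6 and 14 CPM in M-TC and 19.7 and 19.1 CPM in M-noTC, and stood at 26.5 and 28.1 CPM and at 27.9 and 27.6 CPM with LPS. No LPS library overlapped its vehicle group, and the order of GM and M was inverted by LPS. Klf4 thus fell 8.51-fold in GM-TC (log2 fold change -3.09, SE 0.0891, adjusted p = 2.4e-18) and 10.4-fold in GM-noTC (-3.37, SE 0.0921, adjusted p = 9e-19). In M-TC it rose 1.97-fold (0.98, SE 0.0887, adjusted p = 1.4e-09), which did not pass with library size only (0.16, adjusted p = 0.11). In M-noTC it rose 1.43-fold (0.52, SE 0.0814, adjusted p = 6.6e-06), and this direction turned with library size only (-0.21, adjusted p = 0.024).

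Klf2, which holds T cells and monocytes in a quiescent state, moved the other way with TMM scaling, by less than Klf4 in GM and about as far in M. It was at 7.62 and 7.73 CPM in GM-TC and at 10.8 and 13.3 CPM with LPS, and at 6.52 and 7.46 CPM in GM-noTC and at 11.6 and 12.6 CPM with LPS. In M it went from 19.7 and 17.8 CPM to 10.8 and 9.01 CPM on TC dishes and from 16.3 and 17.2 CPM to 11.7 and 10.1 CPM on noTC dishes. The 4 groups with LPS thereby came together between 9.01 and 13.3 CPM, each overlapping its neighbour in level. The rise was 0.65 on the log2 scale in GM-TC (SE 0.13, adjusted p = 0.00014) and 0.79 in GM-noTC (SE 0.128, adjusted p = 1.3e-05), and neither passed with library size only (0.17, adjusted p = 0.23, and 0.28, adjusted p = 0.056). The fall was 1.89-fold in M-TC (-0.92, SE 0.119, adjusted p = 4.6e-07) and 1.55-fold in M-noTC (-0.63, SE 0.115, adjusted p = 4.5e-05). With library size only these falls were deeper (-1.74 and -1.35, adjusted p = 1.4e-11 and 5.4e-10). The endothelial marker list is from a cell type that depends on Klf2. It summed to 12.3 to 15.6 CPM in vehicle libraries and 44.7 to 117 CPM in LPS libraries. Emcn was at 0 in 5 of the 8 groups and Tek at 0 in 2, and both were under the filter. In M-noTC Kdr, Pecam1 and Cdh5 rose with LPS (3.16, 2.68 and 1.75) and Tie1 was not called (0.05). In GM-noTC Kdr and Pecam1 rose (2.37 and 1.89), and Cdh5 and Tie1 were not called (0.60 and -0.58). The part of this list in the Klf2 values was not tested.

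Klf6, an early activator of inflammatory genes in myeloid cells, was at 285 and 270 CPM in GM-TC, 266 and 267 CPM in GM-noTC, 239 and 239 CPM in M-TC and 241 and 247 CPM in M-noTC. With LPS it was at 644 and 653 CPM and at 682 and 659 CPM in GM, and at 1170 and 1200 CPM and at 1070 and 1100 CPM in M. The levels were close at steady state, and all LPS libraries were above them. Klf6 rose 2.34-fold in GM-TC (1.22, SE 0.0466, adjusted p = 3.6e-16), 2.51-fold in GM-noTC, 4.98-fold in M-TC (2.32, SE 0.0478, adjusted p = 3.7e-21) and 4.45-fold in M-noTC.

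Klf7, the closest relative of Klf6, was at 25.5 and 19.8 CPM in GM-TC and 32.3 and 31.4 CPM in GM-noTC, and at 84.9 and 82.4 CPM and 84.1 and 83.4 CPM with LPS. In M it went from 19.1 and 15.9 CPM to 199 and 191 CPM on TC dishes and from 15.9 and 17 CPM to 155 and 155 CPM on noTC dishes. Its rise in M was the largest of the 9 genes, at 11.2-fold in M-TC (3.48, SE 0.0877, adjusted p = 1.2e-19) and 9.38-fold in M-noTC (3.23, SE 0.0855, adjusted p = 3.4e-19). In GM it rose 3.72-fold on TC dishes (1.89, SE 0.0878) and 2.63-fold on noTC dishes (1.40, SE 0.0827), with adjusted p = 1.4e-14 and 1.2e-12. Klf7 overlaps 2 other annotated genes, Gm13748 and Gm26649, which were not in the table, and how reads there were counted is not stated.

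Klf3, the CtBP-dependent repressor, was at 60 and 55.2 CPM in GM-TC and 59.7 and 60.8 CPM in GM-noTC, and at 133 and 136 CPM and 140 and 147 CPM with LPS. In M it was at 82.5 and 77.4 CPM in M-TC and 52.8 and 57.7 CPM in M-noTC, and at 193 and 192 CPM and 167 and 173 CPM with LPS. Each LPS group lay above every vehicle library. In GM the rise was 2.34-fold on TC and 2.38-fold on noTC dishes, and in M 2.41-fold and 3.07-fold (log2 fold changes 1.23, 1.25, 1.27 and 1.62, SE 0.0592 to 0.0614), with the highest adjusted p of the 4 at 5.6e-14. Klf3 shares 404 bases with Gm20033 on the opposite strand, so reads there could not be told apart without strand.

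**Figure D3:**
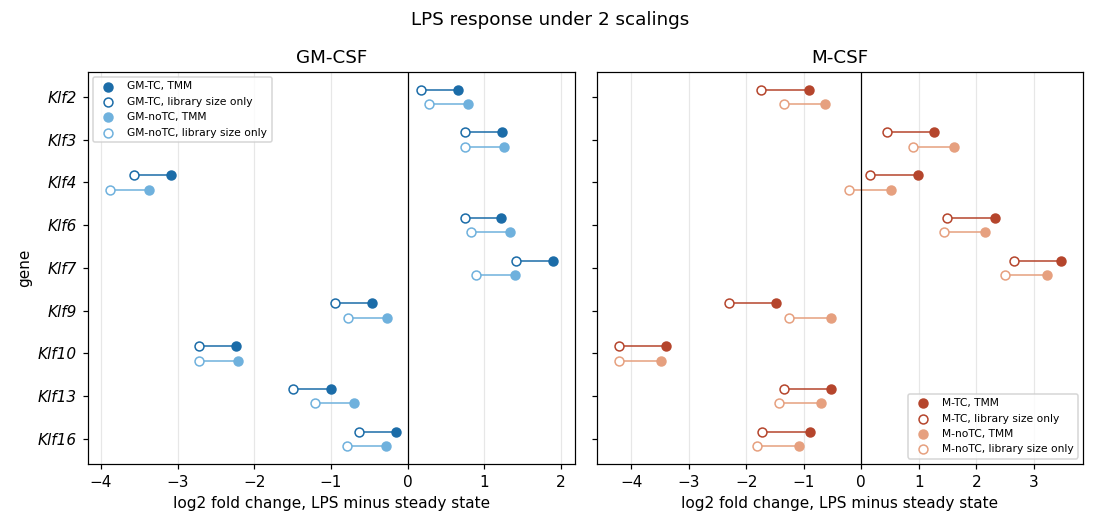
LPS log2 fold change (x axis) of the 9 Kruppel-like factors with TMM scaling (filled) and with library size only (hollow), in GM and M panels. Klf3, Klf6 and Klf7 stay above 0 and Klf10 far below it under either scaling, while Klf4 in M-noTC moves from 0.52 to -0.21.

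Among the Sin3a-binding members, Klf10, first known as an early gene of TGF-beta signalling, had the deepest fall. It was at 50.5 and 50.8 CPM in GM-TC and 53.1 and 49.2 CPM in GM-noTC, and at 11.7 and 9.84 CPM and 10.4 and 11.7 CPM with LPS. In M it went from 23.2 and 23.5 CPM to 2.51 and 1.86 CPM on TC dishes and from 29.1 and 30.7 CPM to 3.18 and 2.15 CPM on noTC dishes. Most of the Klf10 level was thus lost in all 4 settings, and the lowest library held 32 counts. The falls were 4.72-fold in GM-TC (-2.24, SE 0.0993, adjusted p = 6.1e-15), 4.63-fold in GM-noTC (-2.21, SE 0.0972, adjusted p = 5.2e-15), 10.5-fold in M-TC (-3.40, SE 0.145, adjusted p = 1.9e-15) and 11.3-fold in M-noTC (-3.49, SE 0.132, adjusted p = 2.1e-16).

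Klf9, a gene induced by glucocorticoid and thyroid hormone, was at 97.4 and 97.8 CPM in GM-TC and 80.5 and 79.4 CPM in GM-noTC, and at 72.4 and 68.8 CPM and 66.9 and 65.3 CPM with LPS. In M it was at 7.22 and 7.11 CPM and 7.65 and 6.74 CPM, and at 2.61 and 2.5 CPM and 5.08 and 4.79 CPM with LPS. It fell in all 4 settings, by 0.47 on the log2 scale in GM-TC (SE 0.0576, adjusted p = 2.8e-07), 0.28 in GM-noTC (SE 0.0578, adjusted p = 0.00025), 1.48 in M-TC (SE 0.131, adjusted p = 9.3e-10) and 0.53 in M-noTC (SE 0.107, adjusted p = 0.00013).

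Klf13, an activator of Ccl5 in T cells, was at 120 and 112 CPM in GM-TC and 102 and 101 CPM in GM-noTC, and at 58.3 and 57.1 CPM and 63.2 and 61.5 CPM with LPS. In M it went from 78 and 80.1 CPM to 55.4 and 54.6 CPM on TC dishes and from 73.2 and 69.2 CPM to 45.7 and 41.9 CPM on noTC dishes. Its falls on TC and noTC dishes were 2.01-fold and 1.63-fold in GM and 1.44-fold and 1.63-fold in M, with the highest adjusted p at 7.7e-08. Klf16, a repressor of dopamine receptor genes, was at 8.13 and 8.62 CPM in GM-TC against 7.86 and 7.29 CPM with LPS (-0.15, SE 0.127, adjusted p = 0.31), and was called lower there with library size only (-0.63, adjusted p = 0.00015). In GM-noTC it was at 10.1 and 9.68 CPM against 8.34 and 7.94 CPM with LPS (-0.28, SE 0.12, adjusted p = 0.046), a call lost without any 1 of these 4 libraries (adjusted p 0.086 to 0.20) and in DESeq2 (0.13). In M the fall was larger, from 7.94 and 8.16 CPM to 4.72 and 3.83 CPM on TC dishes (-0.90, SE 0.14, adjusted p = 5.3e-06) and from 10.5 and 10.7 CPM to 5.49 and 4.49 CPM on noTC dishes (-1.09, SE 0.127, adjusted p = 9.5e-08).

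Whether the LPS response itself differed between growth factors was tested as an interaction, the GM response minus the M response. It passed for 8 of the 9 members on TC dishes, beside 41.1% of all genes, and for 7 of 9 on noTC dishes, beside 36.2%. Klf4 had the largest difference, -4.07 on TC dishes (adjusted p = 2.3e-16) and -3.89 on noTC dishes (adjusted p = 6.2e-16), followed by Klf7 at -1.59 and -1.83 and Klf2 at 1.57 and 1.41. Klf6 rose less in GM than in M (-1.09 and -0.82), and Klf10 fell less in GM than in M (1.16 and 1.28). Klf16 also differed (0.75 and 0.81), and Klf9 did on TC dishes (1.02). The interactions of Klf13 on TC dishes and of Klf3 on noTC dishes did not pass with library size only (adjusted p = 0.23 and 0.17), and that of Klf3 on TC dishes, not called with TMM, was then 0.30 (adjusted p = 0.0052), the opposite sign. Klf9 on noTC dishes, not called with TMM, then passed at 0.47 (adjusted p = 0.0043).

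The second question was how GM and M macrophages differed in these genes before and after LPS. Klf9 and Klf10 were higher in GM throughout, Klf4 was higher in GM at steady state and lower after LPS, and Klf2 was lower in GM at steady state and not called after LPS. At steady state, 6 members were higher and 2 lower in GM on TC dishes, beside 32.6% and 28.9% of all genes, and 6 were higher and 1 lower on noTC dishes, beside 31.4% and 30.7%. Upon LPS challenge, 3 were higher and 4 lower on TC dishes, beside 33.9% and 32.9%, and 4 and 4 on noTC dishes, beside 33.5% and 32.6%. Scaled by library size only, the members at steady state split into 4 higher and 2 lower on TC dishes and 5 and 4 on noTC dishes, beside 19.6% and 50.8%, and 19.7% and 52.1% of all genes. The dendritic cell markers summed to 907 to 1090 CPM in the GM libraries and to 15.5 to 59.8 CPM in the M libraries. The macrophage markers summed to 37700 to 46500 CPM in GM and 19900 to 27700 CPM in M, but of these 6 genes 3 were higher and 3 lower in GM in each comparison. At steady state on TC dishes Csf1r, Adgre1 and Cd68 were lower in GM (-1.76, -1.90 and -0.38). Lyz2, Itgam and Mertk were higher there (0.87, 1.35 and 0.96). The part of these markers in the differences of Klf9, Klf4 and the others was not tested. In such bulk samples, fewer cells of a type and less RNA per cell cannot be told apart.

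**Figure D4:**
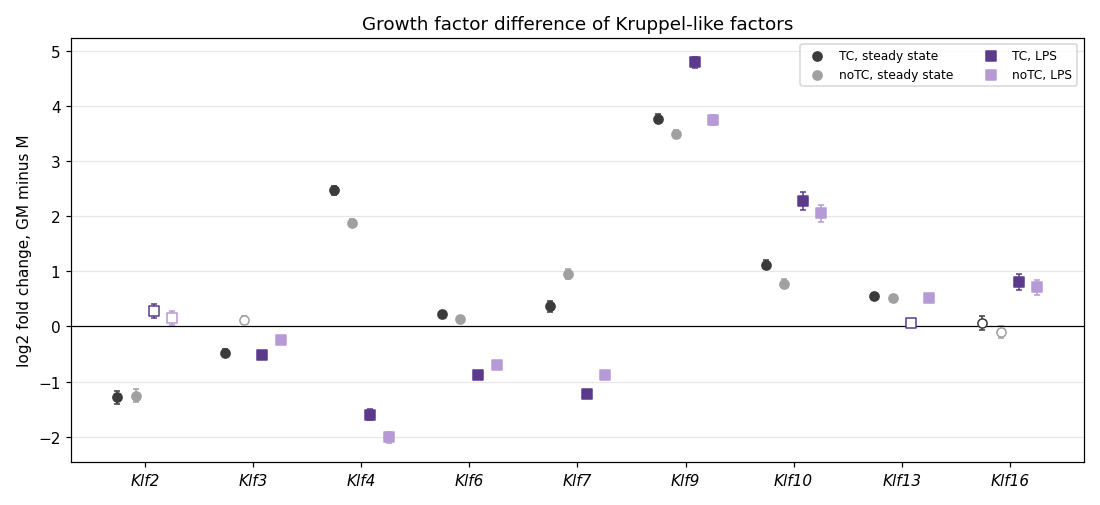
Log2 fold change (y axis) of each Kruppel-like factor in GM against M on TC and noTC dishes, at steady state and with LPS, with bars of 1 SE; filled points passed an adjusted p under 0.05. Klf9 lies between 3.49 and 4.78 in all 4 comparisons and Klf4 crosses from 2.47 and 1.88 to -1.60 and -2.01.

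Klf9 separated the growth factors most, with every GM library at least at 65.3 CPM and every M library at most at 7.65 CPM. It was 13.6-fold higher in GM on TC dishes (3.77, SE 0.0739, adjusted p = 4.8e-21) and 11.2-fold on noTC dishes (3.49, SE 0.0706, adjusted p = 8.7e-21). With LPS the folds were 27.6 (4.78, SE 0.0963, adjusted p = 9e-21) and 13.4 (3.74, SE 0.0847, adjusted p = 6.9e-20). Klf10 was 2.17-fold and 1.71-fold higher in GM at steady state and 4.85-fold and 4.15-fold higher with LPS (log2 fold changes 1.12, 0.77, 2.28 and 2.05, SE 0.0817 to 0.167, highest adjusted p = 3e-08).

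Klf4 was 5.53-fold higher in GM-TC than in M-TC (2.47, SE 0.0805, adjusted p = 3.7e-17) and 3.67-fold higher in GM-noTC than in M-noTC (1.88, SE 0.0742, adjusted p = 1.1e-15). After LPS it was 3.04-fold and 4.04-fold lower in GM (-1.60, SE 0.0986, adjusted p = 2.9e-12, and -2.01, SE 0.102, adjusted p = 9.2e-14). Klf2 was 2.44-fold and 2.39-fold lower in GM at steady state (-1.29, SE 0.121, adjusted p = 4.4e-09, and -1.26, SE 0.118, adjusted p = 3.9e-09). With LPS the Klf2 difference was 0.28 (SE 0.128, adjusted p = 0.059) and 0.15 (SE 0.125, adjusted p = 0.29), and the former passed without GM-TC-LPS replicate 1 (0.42, adjusted p = 0.017), without M-TC-LPS replicate 1 (0.42, adjusted p = 0.03) or with library size only (0.31, adjusted p = 0.038).

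Klf6 and Klf7 changed order with LPS. Klf7 was higher in GM-noTC than in M-noTC (0.95, SE 0.0904, adjusted p = 5.3e-09) and lower with LPS (-1.22, SE 0.0761, on TC dishes and -0.89, SE 0.0761, on noTC dishes, adjusted p = 3.7e-12 and 9.4e-10). On TC dishes at steady state Klf7 differed by 0.37 (SE 0.0988, adjusted p = 0.0029), which rested on single libraries: it was 0.17 without GM-TC replicate 1 and 0.22 without M-TC replicate 2 (adjusted p = 0.14 and 0.11), 0.55 without GM-TC replicate 2, and 0.053 with library size only (adjusted p = 0.66). Klf6 was slightly higher in GM at steady state (0.22 and 0.13, SE 0.0465 and 0.0462, adjusted p = 0.00034 and 0.02), and these values turned to -0.094 and -0.16 with library size only (adjusted p = 0.075 and 0.0033). The call on noTC dishes was also lost without any 1 of its 4 libraries (adjusted p 0.078 to 0.17). With LPS Klf6 was 1.83-fold and 1.62-fold lower in GM (-0.87, SE 0.0456, adjusted p = 1.7e-13, and -0.70, SE 0.0455, adjusted p = 8.8e-12).

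Klf3 was lower in GM-TC than in M-TC (-0.47, SE 0.0619, adjusted p = 7.6e-07) and lower with LPS on both dishes (-0.52 and -0.24, SE 0.058 and 0.0578, adjusted p = 7.1e-08 and 0.0009). On noTC dishes at steady state its value was 0.12 (adjusted p = 0.085), and -0.17 with library size only (adjusted p = 0.019). Klf13 was higher in GM at steady state (0.55 and 0.51, SE 0.0574 and 0.0568, adjusted p = 2.5e-08 and 5.9e-08) and with LPS on noTC dishes (0.51, SE 0.0632, adjusted p = 2.9e-07) but had a value of 0.07 with LPS on TC dishes (adjusted p = 0.34). Klf16 was higher in GM with LPS (0.81 and 0.71, SE 0.145 and 0.138, adjusted p = 4.3e-05 and 0.00012), beside 0.06 and -0.10 at steady state (adjusted p = 0.69 and 0.43). The latter was called lower with library size only (-0.39, adjusted p = 0.0034).

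The third question was whether the dish surface altered these genes. Fold changes of noTC against TC were small beside those of LPS and growth factor: with TMM scaling no member passed a 2-fold change in any of the 4 dish comparisons, and with library size only Klf9 in M with LPS did (1.03, adjusted p = 3.3e-05). In M the dendritic cell markers summed to 15.5 to 16.8 CPM in M-TC and 47.5 to 48 CPM in M-noTC. With LPS these sums were 22.2 to 24.9 and 55.2 to 59.8 CPM. Of the 4 tested, 2 were called higher on noTC dishes at steady state and 1 with LPS, and 0 lower. Of the 6 macrophage markers in M, 4 were lower and 1 higher on noTC dishes in either state. Shares of all genes in M follow below. The part of these markers, and of the heart muscle and Il6 values given above, in the dish differences was not tested. In GM at steady state 1 member was higher and 2 lower on noTC dishes, beside 4.69% and 2.85% of all genes, and in M 3 were higher and 1 lower, beside 16.1% and 11.1%. With LPS, 0 of the 9 Kruppel-like factors were called in GM by edgeR, where 2.08% and 0.727% of all genes were higher and lower, 1 had an unadjusted p under 0.05, and DESeq2 called 0. In M with LPS 1 was higher and 4 lower, beside 10.4% and 12.9% of all genes, and with library size only 1 and 2, beside 16.8% and 7.03%.

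**Figure D5:**
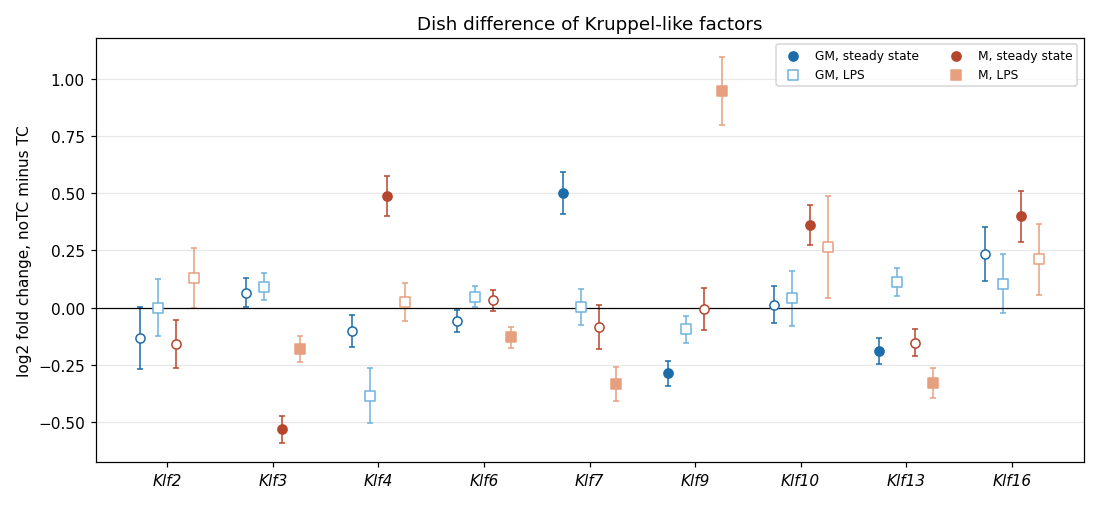
Log2 fold change (y axis) of each Kruppel-like factor on noTC against TC dishes in GM and M, at steady state and with LPS, with bars of 1 SE; circles show steady state, squares LPS, and filled points passed an adjusted p under 0.05. The values lie between -0.53 (Klf3, M at steady state) and 0.95 (Klf9, M with LPS).

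Klf9 in M with LPS had the largest dish difference. M-TC-LPS libraries were at 2.61 and 2.5 CPM and M-noTC-LPS libraries at 5.08 and 4.79 CPM, a 1.93-fold difference (0.95, SE 0.147, adjusted p = 6e-05) over a floor of at most 0.174 CPM. The vehicle libraries of the 2 dishes overlapped (-0.01, adjusted p = 0.98), and the LPS response of Klf9 in M differed between dishes by 0.95 (adjusted p = 0.00099). In GM at steady state Klf9 was lower on noTC dishes (-0.29, SE 0.0564, adjusted p = 0.002).

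Klf3 was 1.45-fold lower in M-noTC than in M-TC (-0.53, SE 0.0602, adjusted p = 6.8e-07), with no overlap of libraries, and Klf4 was 1.4-fold higher (0.49, SE 0.0861, adjusted p = 0.00017). Klf10 was 1.28-fold higher in M-noTC (0.36, SE 0.087, adjusted p = 0.0034, and 0.32 with adjusted p = 0.054 without M-noTC replicate 2). Klf16 was 1.32-fold higher there (0.40, SE 0.113, adjusted p = 0.011), a call lost without any 1 of its 4 libraries (adjusted p 0.053 to 0.087). In GM at steady state Klf7 was 1.41-fold higher on noTC dishes (0.50, SE 0.0924, adjusted p = 0.0011, and 0.32 with adjusted p = 0.032 without GM-TC replicate 2). Klf13 was 1.14-fold lower (-0.19, SE 0.0567, adjusted p = 0.045, and adjusted p 0.12 to 0.21 without GM-TC replicate 1 or either GM-noTC replicate). With the spread estimated from the 4 libraries of this comparison alone, none of the 3 GM calls passed (adjusted p = 0.076 for Klf7, 0.07 for Klf9 and 0.25 for Klf13).

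With LPS in M, Klf7 and Klf13 were 1.26-fold lower on noTC dishes (both -0.33, SE 0.0736 and 0.0644, adjusted p = 0.002 and 0.00068). Klf3 (-0.18, adjusted p = 0.026) and Klf6 (-0.13, adjusted p = 0.041) were also lower, calls lost without any 1 of the 4 libraries (adjusted p 0.059 to 0.19 and 0.072 to 0.23) and with library size only (0.26 and 0.55). In GM with LPS Klf4 had the lowest unadjusted p of the 9 (-0.38, SE 0.12, adjusted p = 0.1), and passed without GM-noTC-LPS replicate 2 (-0.62, adjusted p = 0.016). A share of 0.675% (GM) or 0.6% (M) of the other libraries' mean was also subtracted from the noTC libraries at steady state, sized on genes near 0 on TC dishes. It took at most 4.35 CPM from any member and ended, among dish calls, that of Klf13 in GM (adjusted p = 0.056).

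Tested as interactions, the LPS response differed between dishes for 0 of 9 members in GM by edgeR (0.783% of all genes; 3 members, Klf7, Klf9 and Klf13, at an unadjusted p under 0.05, and 1, Klf7, called by DESeq2) and for 3 of 9 in M, Klf3, Klf4 and Klf9, beside 10.6% of all genes. The dish effect differed between growth factors for 3 of 9 at steady state, Klf3, Klf4 and Klf7, beside 11.2%, and for 4 of 9 with LPS, Klf3, Klf7, Klf9 and Klf13, beside 10.6%. With library size only, the last of these comparisons lost Klf3 and Klf7 (0.17 and 0.23, both adjusted p = 0.21) and gained Klf4 (-0.52, adjusted p = 0.027), and the LPS-by-dish call of Klf4 in M was lost (-0.36, adjusted p = 0.064). Klf3 had a dish effect 0.60 higher in GM than in M at steady state (adjusted p = 7.3e-05), and Klf9 one 1.04 lower in GM than in M with LPS (adjusted p = 0.00012).

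Of the 8 other Kruppel-like factors in the table, Klf1, Klf12, Klf14, Klf15 and Klf17 did not pass the filter on low counts. Klf8, a CtBP-binding relative of Klf3, rose with LPS in all 4 settings (log2 fold change 2.26 in GM-TC, 3.32 in M-TC and 3.47 in M-noTC), from 4.1 to 7.8 CPM at steady state to 18 to 25.5 CPM in GM and 56.1 to 88.4 CPM in M. Klf11, the closest relative of Klf10, rose by 1.32 in GM-TC and fell by 1.14 in M-TC and 1.22 in M-noTC. Klf5 rose by 2.71 in GM-TC, from 3 and 5 counts near the floor to 24 and 25 counts. It was not called in M, where a library held 0 to 3 counts. Of the 9 Sp factors, which bind the same GC boxes, Sp5, Sp7, Sp8 and Sp9 did not pass the filter. Sp1 lay at 117 and 117 CPM in M-TC and at 76.1 and 75.9 CPM with LPS, and Sp3 at 119 and 111 CPM against 76.1 and 85.8 CPM. Sp2 was at 19.6 and 16.5 CPM in M-TC and at 39 and 37.6 CPM with LPS. Sp4 was at 14.6 and 13.1 CPM against 11.5 and 11.1 CPM and was not called (-0.29, adjusted p = 0.053). In GM-noTC Sp1 fell with LPS by 0.19 (adjusted p = 0.012) and Sp2 rose by 0.57 (adjusted p = 5.3e-05). Sp3 and Sp4 were not called there (-0.11 and -0.30). In GM-TC 2 of the 5 tested were higher and 3 lower, beside 32.8% and 34.2% of all genes. Sp6 held 0 to 3 counts in a GM vehicle library and 18 to 38 counts in a GM library with LPS.

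The MEK5-ERK5-MEF2 route, a kinase cascade whose MEF2 factors are known to activate Klf2 and Klf4, listed here together with the deacetylases Hdac4, Hdac5, Hdac7 and Hdac9 that repress MEF2, was measured by 11 tested genes (Mef2b was under the filter). With LPS 10 of them were lower and 1 higher in each of the 4 settings, beside 34% to 36.4% of all genes lower and 32.8% to 37.6% higher. With library size only, 10 were lower in GM and 11 in M, beside 62.7% to 69.1% of all genes. The falls thus took in both the activating kinases and MEF2 factors and the repressing deacetylases. The largest falls in M-TC were those of Mapk7, the gene of ERK5 (-2.09, SE 0.12, adjusted p = 4.9e-13), Mef2d (-1.98, SE 0.0744, adjusted p = 1.8e-16) and Hdac5 (-1.82, SE 0.0831, adjusted p = 6.9e-15). Hdac5 was also the lowest in GM-TC (-1.63, SE 0.0876, adjusted p = 2e-13). The gene that was higher, named after its values were seen, was Mef2a (0.74, 0.82, 0.40 and 0.38), whose values in M-TC and M-noTC turned to -0.43 and -0.35 with library size only. Mef2c, which lay at 79.7 to 95.4 CPM in the M vehicle libraries and at 8.83 to 14.3 CPM in the GM ones, was 3.12 lower in GM on TC dishes (SE 0.0827, adjusted p = 8.8e-19) on the log2 scale, and 10 of the 11 genes were lower in GM there and 0 higher, beside 28.9% and 32.6% of all genes. On noTC dishes at steady state 7 of the 11 were lower in GM and 1 higher, beside 30.7% and 31.4%. With LPS on TC dishes 5 of the 11 were lower in GM and 4 higher, beside 32.9% and 33.9%. With LPS on noTC dishes 3 were lower in GM and 5 higher, beside 32.6% and 33.5%. With library size only, 10 were lower in GM at steady state on either dish, beside 50.8% (TC) and 52.1% (noTC) of all genes. Of the 11, Hdac9 (0.78) and Mef2c (0.52) were higher on noTC than on TC dishes in GM at steady state and 0 were lower, beside 4.69% and 2.85% of all genes.

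Among 11 corepressors and coactivators of Kruppel-like proteins, 6 were higher and 2 lower with LPS in GM-TC, beside 32.8% and 34.2% of all genes. With library size only 4 were higher and 7 lower, beside 17.2% and 62.7%, so the 7 of 11 were near the share of all genes. Hdac1, the deacetylase of the Sin3 complex, rose by 1.23 in GM-TC (adjusted p = 8e-14) and by 1.75 in M-TC (adjusted p = 5.9e-17). Sin3a, the partner of Klf9, Klf10, Klf13 and Klf16, fell by 1.16 in M-TC and by 1.62 in M-noTC (SE 0.0869 and 0.0873, adjusted p = 5.5e-11 and 1.5e-13), with values of -0.04 and -0.12 in GM (adjusted p = 0.68 and 0.19). Of 3 ubiquitin ligases that act on these proteins, 2 were higher and 1 lower with LPS in M-TC, beside 37.6% and 36.4% of all genes, and likewise 2 and 1 in GM against M on TC dishes at steady state, beside 32.6% and 28.9%. With LPS in GM-TC 0 were higher and 2 lower, beside 32.8% and 34.2%. In GM-noTC 1 was higher and 2 lower with LPS, beside 33.6% and 34%, and Smurf1 fell there (-0.60, adjusted p = 5.6e-08). Smurf1 and Fbxw7 rose with LPS in M-TC (0.61 and 0.81, adjusted p = 2e-07 and 7.5e-08). At steady state on TC dishes both were higher in GM than in M (1.51 and 1.0, adjusted p = 2.6e-14 and 2.8e-09). With LPS these differences were smaller, at 0.37 and 0.37 on TC dishes and 0.49 and 0.34 on noTC dishes. With library size only, 0 were higher and 2 lower with LPS in M-TC. Wwp1, which targets Klf2, fell with LPS in M-TC (-1.35, SE 0.0618, adjusted p = 7.2e-15) and was lower in GM at steady state on TC dishes (-2.26, SE 0.0642, adjusted p = 3.1e-18).

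Of 11 tested genes known as targets of Kruppel-like factors (Retnla was under the filter), 2 were higher and 5 lower with LPS in GM-TC, beside 32.8% and 34.2% of all genes, and 4 higher and 5 lower in M-TC, beside 37.6% and 36.4%. With library size only the counts were 2 and 9 in GM-TC, beside 17.2% and 62.7%, and 3 and 7 in M-TC, beside 16.3% and 69.1%. Thbd, the thrombomodulin gene that Klf2 and Klf4 activate in endothelium, fell in GM-TC (log2 fold change -3.12, SE 0.368, adjusted p = 1.3e-07) and M-TC (-2.56, SE 0.289, adjusted p = 4.9e-08), from a low level of 3.33 to 7.18 CPM. S1pr1, a Klf2 target in T cells, fell by 2.96 in M-TC (SE 0.124, adjusted p = 1.4e-15), from 52.2 and 51.6 CPM to 7.68 and 5.58 CPM, and was 4.46 lower in GM than in M on TC dishes at steady state (SE 0.144, adjusted p = 3e-17). Cdkn1a, the p21 cell cycle inhibitor that Klf4 and Klf6 activate, rose by 4.67 in M-TC (SE 0.0629, adjusted p = 2.9e-24). It rose by 3.75 in M-noTC (adjusted p = 5e-23). In GM-noTC, where Klf4 fell and Klf6 rose, Cdkn1a rose by 1.46 (adjusted p = 3.1e-16). Its LPS response in GM minus that in M was -3.12 on TC dishes (adjusted p = 1.2e-17). Arg1 was 8.21 higher in GM than in M on TC dishes (SE 0.363, adjusted p = 8.4e-15) and 2.38 higher on noTC than on TC dishes in GM (SE 0.144, adjusted p = 2.6e-10).

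Over the 16 libraries, Klf6 and Klf7 followed each other most closely among the 9 (Pearson r = 0.986 of log2 CPM), and Klf6 and Klf10 ran most opposed (r = -0.941). The genes most like each member among 7818 expressed genes were Tcf7l2 and Snx27 for Klf4 (r = 0.967 and 0.934), Cdkn1b and Ttbk2 for Klf2 (0.91 and 0.907), Cd300lf and Tnfrsf23 for Klf9 (both 0.993), and Plekhf2 and Ankib1 for Klf6 (0.998 and 0.997). For Klf7 they were Ecpas and Irak2 (0.995 and 0.994), for Klf3 Arid5b and Notch2 (0.994 and 0.989), for Klf10 Ell and Lhfpl2 (both 0.994), for Klf13 Cebpa and Ankrd46 (0.982 and 0.976), and for Klf16 Foxo1 and Rinl (0.946 and 0.945). These correlations describe 8 groups of libraries that share culture and depth, and carry no test.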

How the data were processed

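RNA was sequenced by the authors from oligo(dT)-enriched libraries on a NovaSeq instrument. The deposited table held expected counts per gene, made by the authors with HISAT2 and RSEM; the submitters' processing notes also name fastp 0.18.0, Bowtie2 2.2.8, StringTie 1.3.1, DESeq2 and edgeR. The genome build is not given in the sources used here. Between 6.56% and 8.19% of values per library were not whole, and values were rounded. Genes were filtered by group, scaled by TMM and fitted in 1 quasi-likelihood model of 8 groups over all 16 libraries (edgeR 4.0.16, R 4.3.3), without a replicate block, with Benjamini-Hochberg adjustment over 12514 genes. DESeq2 1.42.0, DESeq2 size factors, library size only, no filter, a replicate block, subtraction of reads of other libraries, the libraries of a comparison alone and leaving out each library were alternatives. An exact permutation test of 2 against 2 libraries cannot go below p = 0.333 (two-sided). The members and gene lists were chosen with earlier results of these data known. All members were named; of other lists, up to 3 called genes with the largest change per comparison described were, and for each member the 2 genes of highest correlation among those with a mean of at least 10 CPM. Levels per kb used GENCODE exon unions. The scripts were tested on simulated data.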

Additional observations from a re-analysis of the deposited data

Results flagged for a closer look

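Differences of an effect between groups, each from an interaction term of the edgeR model (log2 scale, adjusted over all genes), passed the threshold for the values that follow. The first are the LPS response in GM minus that in M. On TC dishes they were 1.57 for Klf2 (adjusted p = 2.2e-07), -4.07 for Klf4 (2.3e-16), -1.09 for Klf6 (1e-11), -1.59 for Klf7 (8.8e-10), 1.02 for Klf9 (6.7e-06), 1.16 for Klf10 (5.7e-05), -0.48 for Klf13 (8.8e-05) and 0.75 for Klf16 (0.0029). On noTC dishes they were 1.41 for Klf2 (8e-07), -0.37 for Klf3 (0.0015), -3.89 for Klf4 (6.2e-16), -0.82 for Klf6 (1.1e-09), -1.83 for Klf7 (4.3e-11), 1.28 for Klf10 (6.8e-06) and 0.81 for Klf16 (0.0009).

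In M, the LPS response on noTC minus that on TC dishes was 0.35 for Klf3 (adjusted p = 0.0084), -0.46 for Klf4 (0.015) and 0.95 for Klf9 (0.00099). The first was lost without replicate 1 of M-TC or of M-noTC, at 0.32 and 0.30 (adjusted p = 0.06 and 0.069). That of Klf4 was lost without either M-TC replicate, M-TC-LPS replicate 2 or M-noTC replicate 1 (-0.48 to -0.42).

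The dish effect in GM minus that in M was, at steady state, 0.60 for Klf3 (adjusted p = 7.3e-05), -0.59 for Klf4 (0.001) and 0.58 for Klf7 (0.0058), the last 0.45 without M-TC replicate 1 (adjusted p = 0.069). With LPS it was 0.27 for Klf3 (0.035), 0.34 for Klf7 (0.048), -1.04 for Klf9 (0.00012) and 0.44 for Klf13 (0.002). The Klf3 and Klf7 values with LPS are the least secure: that of Klf7 was lost without any 1 of the 8 libraries (adjusted p 0.069 to 0.15).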

How the results depend on the processing

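For the Kruppel-like factors, most results kept their direction and side of the threshold: 156 of 162 single-gene results under DESeq2 and 133 of 162 under library size only. With library size only, Klf4 for LPS in M-noTC went to -0.207, Klf6 for GM against M at steady state to -0.0942 on TC and -0.163 on noTC dishes, Klf3 in the latter comparison to -0.167, and Klf3 for LPS in GM minus M on TC dishes to 0.304. The scaling itself makes this shift, as it moves all genes. The count of Kruppel-like factors called for the dish in M with LPS was then 3 in place of 5. It was 0 in place of 3 for the dish in GM at steady state with only the libraries of that comparison. Fewer samples set the spread in that fit, and the cause of the loss was not tested. For LPS by dish in GM it was 1 (Klf7) in place of 0 with no filter, in DESeq2 and with the replicate block; the cause was not tested.

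Leaving out 1 library gave 8 to 8 calls for LPS in GM-TC and GM-noTC, 2 to 3 for the dish in GM at steady state, 0 to 1 with LPS, 2 to 3 for the dish in M at steady state, 3 to 3 with LPS, 7 to 8 and 6 to 6 for GM against M at steady state on TC and noTC dishes, 0 to 1 and 1 to 3 for LPS by dish in GM and M, and 2 to 4 and 2 to 3 for the dish by growth factor at steady state and with LPS. Same-numbered replicates did not deviate together (correlations -0.064 to 0.02), which cannot show whether they came from the same mouse. The replicate block added 2 calls among the single-gene results, Klf13 for the dish in M at steady state (-0.15, adjusted p = 0.047) and Klf7 for LPS by dish in GM (-0.50, adjusted p = 0.044), and ended none. With 2 libraries a group, differences near the spread of these libraries were not detectable.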
